A study of Mus musculus with 288 samples.

Results

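Whole-lung transcriptomes of mice exposed to intermittent hypoxia (IH) were compared with those of mice kept in normoxia, using all 24 lung libraries of each condition, which are 48 of the 288 libraries of the series. The mice were male C57BL/6J wild types, 8 weeks old. IH cycled the inspired oxygen during the inactive (light) phase for 7 days, and control mice breathed room air. Both groups were then held in constant darkness and normoxia, and lungs were taken every 3 h at 8 clock times, with 3 mice (replicates) per time point and condition, so every IH lung was sampled after the exposure had ended. The comparison covered the 11698 of 35904 genes whose mean level over the 48 lung libraries reached 5 TPM, a transcript abundance normalised for transcript length and library size.

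The gas-exchange surface of the lung is built from flat alveolar type I cells and surfactant-secreting type II cells, laid over a dense capillary bed and patrolled by alveolar macrophages. The conducting airways are lined by secretory club cells and by ciliated cells. Low oxygen stabilises hypoxia-inducible factors (HIFs), which raise transcription of genes for glucose uptake, glycolysis and vessel growth. The circadian clock, a loop of transcriptional activators and their own repressors, runs in most of these cells.

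All 48 libraries carried abundant lung transcripts, with Sftpc (surfactant protein C) at no less than 10128 scaled TPM, but the libraries themselves differed by condition. The number of genes detected was 22694 ± 737 in normoxia and 25455 ± 1529 after IH (mean ± SD, n = 24 each; two-sided permutation test, p = 1e-05, the smallest the permutations can give; adjusted p = 1.5e-05 over 3 measures). The 100 most abundant genes took 458670 ± 30847 TPM in normoxia and 418110 ± 27747 TPM after IH (permutation p = 1e-05, adjusted p = 1.5e-05). Mitochondrially encoded genes took 61781 ± 9971 and 66222 ± 13412 TPM (permutation p = 0.205, adjusted p = 0.205). In addition, 8 libraries stood apart from the rest, with a mean correlation to the other lungs of 0.854 to 0.928 where the other 40 had 0.937 to 0.963. They were 7 IH libraries, 4 of replicate 1 and 3 of replicate 2, and 1 normoxia library of replicate 2. The 7 IH libraries held 26818 to 28284 detected genes, against 23622 to 26123 in the other 17 IH libraries. Their ratio of Hbb-bs to Hba-a1, the β- and α-globin transcripts, was 3.53 to 5.38, against 1.78 to 3.22 in the other IH libraries and 1.97 to 2.27 in 23 normoxia libraries. Some kept IH libraries lay between. The club cell transcript Scgb1a1 reached down to 56160 scaled TPM in the other 17 (median 113470) and up to 39927 in the 7. Leaving out the 8 may therefore not remove all of what set them apart. Results below are given with all libraries. Calls lost without these 8 are named for many of the genes given with levels, but not for every call in a list count. The part of detected genes, or of whatever set these libraries apart, in each result was not tested.

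After scaling to the median gene, 1109 genes (9.48% of those tested) changed, meaning that limma's adjusted p did not exceed 0.05 and the difference was 1.5-fold or more. Of these, 871 (7.45%) rose and 238 (2.03%) fell after IH. These 2 shares are the background for the list counts below that use all libraries. The 78.5% share of rises depended on the scale. On the TPM values as deposited, where the median gene itself lay 0.17 above normoxia on the log2 scale (-0.03 after scaling), 1667 genes (14.3%) were called higher and 43 (0.368%) lower, a 97.5% share of rises. With scaling over all detected genes it was 591 and 591 (50%), and with the number of detected genes as a covariate 440 and 718 (38%). Without the 8 libraries 489 genes (4.18%) were called higher and 90 (0.769%) lower. They included 473 of the 871 rises (54.3% of these, 96.7% of the 489) and 48 of the 238 falls (20.2% of these, 53.3% of the 90). The sign was the same in all 3 replicate numbers for 834 rises and 217 falls. Levels are given below as scaled TPM, as the mean ± SD over 24 libraries per condition. Changes are IH minus normoxia on the log2(scaled TPM + 0.5) scale, which understates the change of low genes, with limma's adjusted p.

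**Figure D1:**
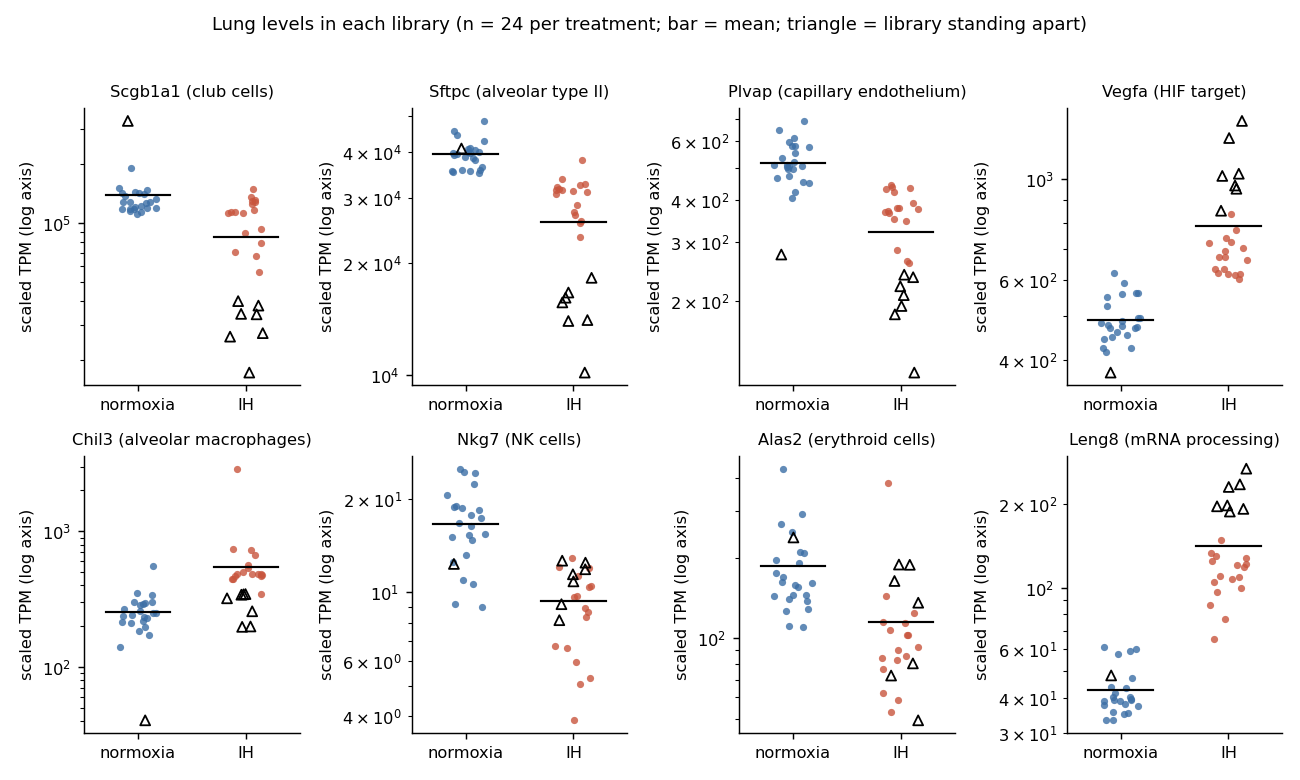
Scaled TPM (log axis) of 8 genes in each of the 48 lung libraries, normoxia beside IH. Triangles are the 8 libraries standing apart and horizontal bars are group means. For Leng8 the 2 conditions do not overlap, whereas for Scgb1a1 the 7 IH libraries standing apart make up the lower end of the IH group.

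Epithelial transcripts were lower after IH, most of all those of the secretory airway. Of 10 club cell genes tested, 6 fell and 0 rose, with a list median of -0.67 against -0.03 for all genes. Scgb1a1 (chr19:9083636-9087958 on GRCm38), the club cell secretoglobin and among the most abundant lung transcripts, ranged from 111350 to 330950 (median 127380) in normoxia and from 17262 to 148220 (median 91216) after IH. Its mean was 139080 ± 44262 in normoxia and 84826 ± 41781 after IH (log2 change -0.90, SE 0.20, adjusted p = 1.30e-04). The ranges overlapped, and 13 IH libraries lay below every normoxia library. Cyp2f2, a club cell cytochrome P450, averaged 2553 ± 687 in normoxia and 1502 ± 783 after IH (log2 change -0.97, adjusted p = 1.28e-05), and the retinaldehyde dehydrogenase Aldh1a1 averaged 981 ± 200.4 in normoxia and 609.9 ± 242 after IH (log2 change -0.79, adjusted p = 4.17e-06). The airway defence protein Bpifb1, named for the size of its fall, ranged from 131 to 479 (median 184) in normoxia and from 15.9 to 169.6 (median 90.6) after IH (log2 change -1.47, SE 0.22, adjusted p = 1.73e-07). For Bpifb1, 19 of 24 IH libraries lay below all normoxia libraries. Pigr, which carries immunoglobulin A across epithelium, averaged 24.6 ± 8.79 in normoxia and 15 ± 9.25 after IH (log2 change -0.91, adjusted p = 8.51e-05).

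The surfactant-producing cells moved the same way. Of 13 alveolar type II genes, 4 fell and 0 rose (median -0.53). Sftpc, a surfactant protein made by type II cells alone, ranged from 34943 to 48434 (median 39467) in normoxia and from 10128 to 38080 (median 28113) after IH, and its mean was 39391 ± 3440 in normoxia and 25848 ± 7826 after IH (log2 change -0.68, SE 0.12, adjusted p = 1.47e-06). In 23 of 24 IH libraries Sftpc lay below every normoxia library. Sftpb averaged 4301 ± 537 in normoxia and 3109 ± 1412 after IH (log2 change -0.63, adjusted p = 4.37e-04) and the chitinase-like Chil1 666 ± 106 in normoxia and 447 ± 193 after IH (log2 change -0.69, adjusted p = 1.23e-05). Of 12 alveolar type I genes, 5 fell and 1 rose (median -0.37). Ager, the receptor that marks type I cells, averaged 2293 ± 229 in normoxia and 1448 ± 554 after IH (log2 change -0.78, adjusted p = 1.43e-06), and Igfbp2, a growth factor binding protein of mature type I cells, averaged 324 ± 58.7 in normoxia and 173 ± 64.4 after IH (log2 change -0.98, adjusted p = 1.21e-09). Gprc5a averaged 372 ± 48.5 in normoxia and 231 ± 111 after IH (log2 change -0.86, adjusted p = 6.21e-06). Hopx, a type I transcriptional cofactor, missed the 1.5-fold limit at -0.51 (adjusted p = 3.46e-11). Among 12 ciliated cell genes 0 were called, with a median of -0.40, and their regulator Foxj1 averaged 62.2 ± 20.5 in normoxia and 46.3 ± 17.1 after IH (log2 change -0.49, adjusted p = 0.00208). None of the 7 basal and neuroendocrine genes reached the level to be tested.

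The epithelial difference was smaller without the libraries standing apart. There, 0 of 10 club, 0 of 13 type II and 1 of 12 type I genes were called lower, and the list medians were -0.30, -0.25 and -0.24. The values remained below 0 for Scgb1a1 (-0.32, adjusted p = 0.00464), Sftpc (-0.37, adjusted p = 2.28e-07) and Ager (-0.44, adjusted p = 1.41e-06) but short of the limit. Cyp2f2 (-0.44), Aldh1a1 (-0.40), Pigr (-0.35), Sftpb (-0.25), Chil1 (-0.36) and Gprc5a (-0.51) lost their calls too. Bpifb1 (-0.83) and Igfbp2 (-0.70) were still called. With the number of detected genes as a covariate, the signs of Scgb1a1 (0.18), Sftpc (0.03) and Ager (0.22) turned positive. On deposited TPM 4 of 10 club, 0 of 13 type II and 2 of 12 type I genes were called lower. In these bulk libraries, fewer cells of a type and less RNA per cell cannot be told apart.

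Endothelial transcripts were lower by a smaller margin. Of 15 pan-endothelial genes 3 fell and 0 rose (median -0.34), as did 2 of 10 general capillary, 2 of 10 aerocyte and 1 of 9 arterial and venous genes. Vwf, the platelet-tethering glycoprotein of larger vessels, ranged from 153 to 471 (median 220.3) in normoxia and from 101 to 217 (median 146) after IH (log2 change -0.81, SE 0.11, adjusted p = 1.73e-08). Apln, the peptide ligand that marks aerocytes, the capillary cells specialised for gas exchange, averaged 29.1 ± 6.29 in normoxia and 17 ± 4.96 after IH (log2 change -0.78, adjusted p = 1.33e-08). The fenestral diaphragm protein Plvap averaged 516 ± 86 in normoxia and 322 ± 95.1 after IH (log2 change -0.73, adjusted p = 1.73e-07). The junctional cadherin Cdh5 averaged 320.1 ± 67.4 in normoxia and 211 ± 74.4 after IH (log2 change -0.66, adjusted p = 1.63e-05), and Kdr, the main VEGF receptor, 119 ± 16.5 in normoxia and 78.4 ± 24.9 after IH (log2 change -0.65, adjusted p = 3.81e-07). Cldn5, a tight junction claudin, averaged 647 ± 79.4 in normoxia and 437 ± 111 after IH (log2 change -0.60, adjusted p = 1.62e-08), and the prostaglandin-degrading enzyme Hpgd 590.1 ± 88.9 in normoxia and 399 ± 101 after IH (log2 change -0.59, adjusted p = 4.34e-08). Pecam1 (-0.43, adjusted p = 1.21e-06) and Car4 (-0.25, adjusted p = 5.16e-08) missed the fold limit. Without the libraries standing apart, Vwf (-0.62) and Apln (-0.67) were still called, whereas Cdh5 (-0.43), Kdr (-0.44), Plvap (-0.50), Cldn5 (-0.44) and Hpgd (-0.53) were not. The pan-endothelial list then had 0 of 15 genes called, as it had on deposited TPM. With the number of detected genes as a covariate its median was 0.09, and Cdh5 (0.29), Kdr (0.06) and Plvap (0.08) changed sign. In replicate 3, which held no library standing apart, Vwf was -1.02 and Apln -0.66, against 0.04 for Cdh5 and -0.11 for Kdr.

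Stromal and pleural lists split. Among 12 alveolar fibroblast genes 2 rose and 0 fell (median 0.14). With all 48 libraries no epithelial, endothelial or other stromal list had a positive median on the scaled values. Without the libraries standing apart the lymphatic endothelial median was 0.06. In replicate 3 alone the adventitial fibroblast (0.17), smooth muscle (0.19), lymphatic (0.16) and type I (0.07) medians were positive too. The alveolar fibroblast list was mixed, as 7 of the 12 had a positive change and 3 were lower at an adjusted p of at most 0.05 (36% of all genes were). Tcf21 was -0.44 and not called. In replicate 1 alone the list median was -0.04. Fgfr4, a fibroblast growth factor receptor, ranged from 7.32 to 12.8 (median 9.74) in normoxia and from 11.6 to 30.7 (median 16.7) after IH (log2 change 0.81, SE 0.08, adjusted p = 2.23e-12), with 23 of 24 IH libraries above all normoxia libraries and 0.61 without the libraries standing apart. Among 12 adventitial fibroblast and 10 smooth muscle genes 0 were called. Of 10 pericyte genes 1 fell, the matricellular protein Postn, which averaged 149 ± 16.7 in normoxia and 96.5 ± 17.3 after IH (log2 change -0.63, adjusted p = 3.09e-12). Postn was -0.56 and not called without the libraries standing apart, where 0 pericyte genes were. Of 7 mesothelial genes, which mark the pleural surface, 3 fell. Upk3b, a uroplakin of mesothelium, averaged 49.8 ± 5.48 in normoxia and 29.9 ± 8.01 after IH (log2 change -0.78, adjusted p = 5.39e-10), with 23 of 24 IH libraries below all normoxia libraries. With those libraries left out, Upk3b was -0.55 and not called. In the extracellular matrix, 2 of 22 collagen genes rose and 1 fell, and 2 of 18 basement membrane genes fell. Of all genes 7.45% were higher and 2.03% lower. The fibrillar collagen Col27a1 averaged 4 ± 0.941 in normoxia and 9.86 ± 3.83 after IH (log2 change 1.14, adjusted p = 8.53e-12), the laminin chain Lamc1 46.3 ± 6.07 in normoxia and 28 ± 10.1 after IH (log2 change -0.79, adjusted p = 2.31e-08) and perlecan, Hspg2, 48.4 ± 8.39 in normoxia and 32.3 ± 9.75 after IH (log2 change -0.62, adjusted p = 9.99e-07). Lamc1 (-0.52) and Hspg2 (-0.45) lost their calls without the 8 libraries.

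**Figure D2:**
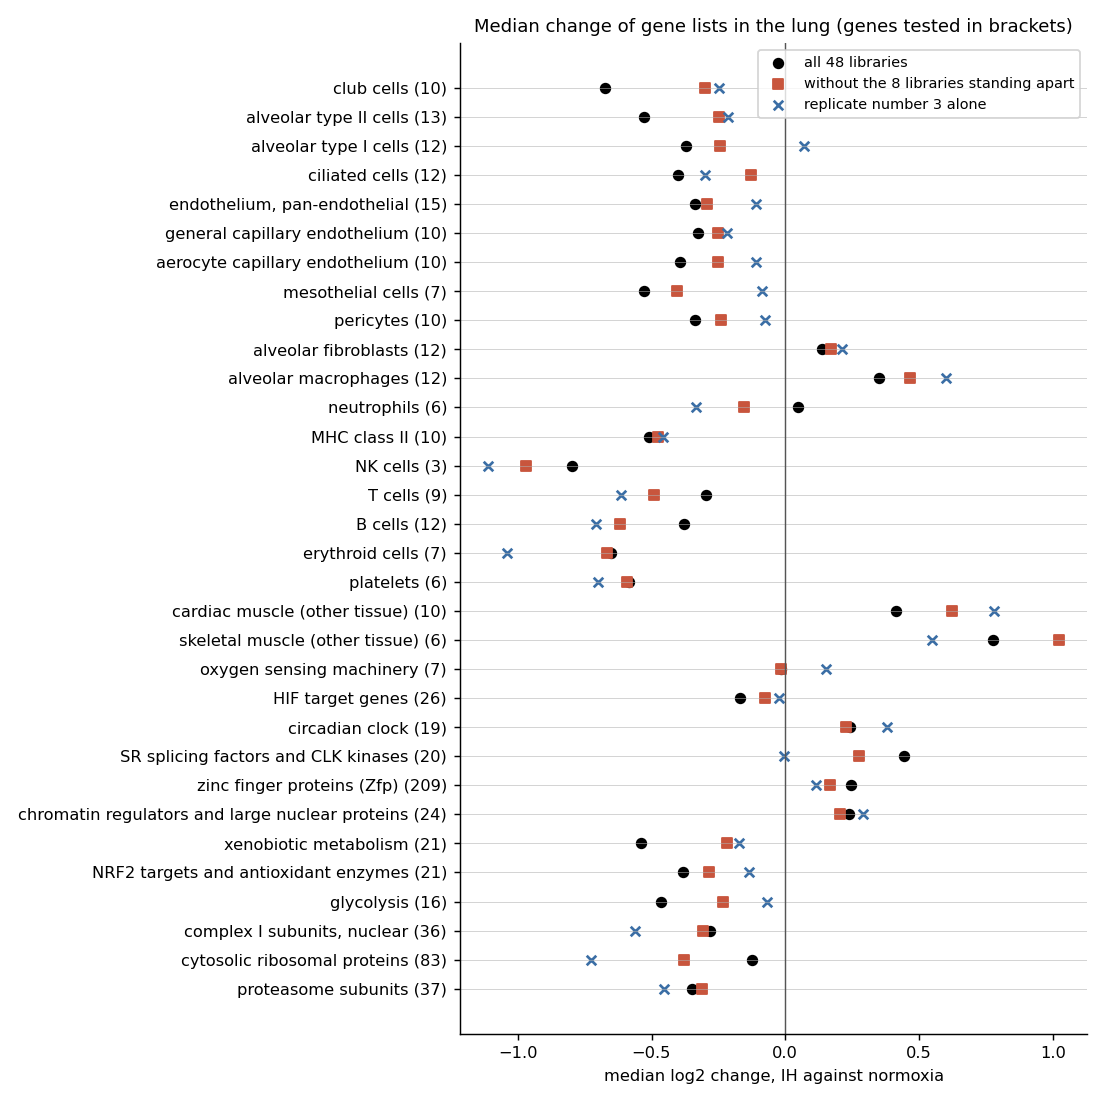
Median log2 change (IH minus normoxia, horizontal axis) of 32 gene lists with all 48 lung libraries (circles), without the 8 libraries standing apart (squares) and in replicate number 3 alone (crosses), with a vertical line at 0. The alveolar macrophage and striated muscle lists lie above 0 and the NK, B cell, erythroid and platelet lists below 0 in all 3 sets, whereas the club cell median is -0.67 with all libraries and -0.30 without the 8.

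Alveolar macrophage transcripts were higher after IH. Of 12 genes 4 rose and 0 fell, all 12 had a positive change, and the median was 0.35. Chil3, the chitinase-like protein Ym1, ranged from 40.5 to 556 (median 247) in normoxia and from 198 to 2896 (median 472) after IH, and its mean was 253 ± 92.1 in normoxia and 551 ± 519 after IH (log2 change 0.97, SE 0.20, adjusted p = 2.95e-05). Its ranges overlapped, with 5 IH libraries above every normoxia library, and its mean was higher at all 8 time points. Siglecf, the sialic acid-binding lectin that identifies alveolar macrophages and eosinophils, ranged from 1.49 to 13.6 (median 4.14) in normoxia and from 3.46 to 11.8 (median 7.88) after IH (log2 change 0.83, SE 0.12, adjusted p = 2.85e-08). The proton pump subunit Atp6v0d2 averaged 13.7 ± 3.47 in normoxia and 23 ± 10.9 after IH (log2 change 0.70, adjusted p = 1.32e-06) and Krt79 18.6 ± 6.23 in normoxia and 28.1 ± 6.65 after IH (log2 change 0.60, adjusted p = 7.44e-05). Itgax, the integrin CD11c shared by alveolar macrophages and dendritic cells, averaged 12.4 ± 2.75 in normoxia and 20.2 ± 5.93 after IH (log2 change 0.67, adjusted p = 3.17e-09). The eosinophil-associated ribonucleases Ear1 (0.12, adjusted p = 0.523) and Ear2 (0.26, adjusted p = 0.0326) were not called. Without the libraries standing apart 4 of 12 genes were called higher, with a median of 0.47. Chil3 was then 1.17, and Krt79 (0.52) lost its call. The replicate numbers differed, with 0 of 12 called in replicate 1 alone (median 0.04), 4 in replicate 2 and 6 in replicate 3 (background 5.68% higher in replicate 3). The 4 called genes kept a positive sign under every scaling and covariate tried.

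In the other myeloid lists fewer genes were called. Of 12 monocyte and interstitial macrophage genes 1 fell, the fractalkine receptor Cx3cr1, which averaged 8.34 ± 2.73 in normoxia and 5.21 ± 1.61 after IH (log2 change -0.61, adjusted p = 3.04e-05) and was -0.55 and not called without the libraries standing apart. Of 6 neutrophil genes 1 rose, the granulocyte growth factor receptor Csf3r, which averaged 10.6 ± 4.19 in normoxia and 19.7 ± 9.63 after IH (log2 change 0.82, adjusted p = 6.53e-05) but was 0.48 and not called without the libraries standing apart. The neutrophil alarmin S100a8 ranged from 54 to 266 (median 171) in normoxia and from 18.2 to 517 (median 162) after IH, with no call (log2 change 0.04, adjusted p = 0.906) and -0.55 without those libraries. None of the mast cell and basophil genes reached the tested level.

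Lymphocyte transcripts were lower, with more genes called without the libraries standing apart. All 3 natural killer (NK) genes tested fell. Nkg7, a cytotoxic granule protein, ranged from 9 to 25 (median 16.5) in normoxia and from 3.88 to 12.9 (median 9.72) after IH, and its mean was 16.6 ± 4.63 in normoxia and 9.36 ± 2.64 after IH (log2 change -0.80, SE 0.12, adjusted p = 1.22e-07). The granzyme Gzma averaged 41.7 ± 13.7 in normoxia and 26.7 ± 13.2 after IH (log2 change -0.75, adjusted p = 5.19e-04). The T and NK cell chemokine Ccl5 averaged 60.2 ± 16.7 in normoxia and 32.1 ± 8.91 after IH (log2 change -0.90, adjusted p = 6.13e-09). With the 8 libraries left out, the 3 changes were -0.91, -1.12 and -0.97, and all were called. Of 12 B cell genes 3 fell, and 6 were called lower without those libraries. The signalling chains of the B cell receptor, Cd79a and Cd79b, averaged 55.4 ± 16.4 in normoxia and 34.2 ± 15.4 after IH (log2 change -0.78, adjusted p = 5.48e-05) and 61.5 ± 17.6 in normoxia and 38.7 ± 19.2 after IH (log2 change -0.77, adjusted p = 7.09e-05), and were -0.91 and -0.98 without those libraries. Fcmr, the IgM receptor, averaged 23.9 ± 7.24 in normoxia and 13.3 ± 6.05 after IH (log2 change -0.90, adjusted p = 5.13e-06). Ms4a1, which encodes CD20, was -0.43 and not called with all libraries and -0.72 and called without them. Of 9 T cell genes 1 fell, the receptor constant chain Trac, which averaged 14.3 ± 3.11 in normoxia and 9.05 ± 2.94 after IH (log2 change -0.66, adjusted p = 1.34e-06). Without those libraries 3 were called, among them the CD3 chain Cd3g (-0.52 with all libraries, -0.78 without). On the deposited scale 2 of 12 B, 0 of 9 T and 2 of 3 NK genes were called lower. In replicate 1 alone the counts were 1, 1 and 1, with 1 B cell gene higher, and in replicate 3 alone 6, 5 and 3.

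Antigen presentation and antibody genes were lower as well. Of 10 MHC class II genes 5 fell and 0 rose. H2-Aa, which displays antigen to helper T cells, ranged from 450.4 to 659.9 (median 543) in normoxia and from 192 to 565 (median 362) after IH (log2 change -0.66, SE 0.08, adjusted p = 7.93e-10), with 22 of 24 IH libraries below every normoxia library. The invariant chain Cd74 averaged 1501 ± 205 in normoxia and 989 ± 341 after IH (log2 change -0.68, adjusted p = 1.55e-06), and H2-Oa, a nonclassical class II chain of B cells, 9.17 ± 2.54 in normoxia and 5.93 ± 2.67 after IH (log2 change -0.66, adjusted p = 4.75e-05). Without the libraries standing apart 1 of the 10, H2-Oa (-0.77), was called lower, whereas H2-Aa (-0.53) and Cd74 (-0.43) were not. On deposited TPM 0 of 10 were called, and with the number of detected genes as a covariate 3 were, with Cd74 at 0.11. The class II genes are also expressed by B cells, dendritic cells and type II cells. Of 6 plasma cell genes 3 fell. Igha, the IgA heavy chain, averaged 25.9 ± 12.3 in normoxia and 15.1 ± 10.7 after IH (log2 change -1.02, adjusted p = 8.44e-04), and the κ light chain Igkc 472 ± 215 in normoxia and 360.4 ± 242 after IH (log2 change -0.60, adjusted p = 0.0224). Neither was called without those libraries (Igha -0.48, Igkc -0.52).

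Erythroid and platelet transcripts were also lower. Of 7 erythroid genes 5 fell and 0 rose (median -0.65), and all 7 were called lower without the libraries standing apart (median -0.67). On deposited TPM 1 of 7 was called with all libraries and 2 without those 8. Replicates 1 and 2 alone gave 0 of 7 each (medians -0.38 and -0.68) and replicate 3 gave 7 (median -1.04). Hba-a1 ranged from 7826 to 34092 (median 11493) in normoxia and from 3110 to 33759 (median 7699) after IH (log2 change -0.65, SE 0.17, adjusted p = 7.35e-04). Hba-a2 averaged 27982 ± 11573 in normoxia and 19622 ± 13353 after IH (log2 change -0.63, adjusted p = 0.00124), but the 2 α-globin genes are near-identical copies whose reads may have been split between them. Alas2, which starts haem synthesis in red cell precursors, averaged 186 ± 71.8 in normoxia and 115 ± 69.1 after IH (log2 change -0.78, adjusted p = 3.78e-05). Bpgm, which makes the red cell modulator of oxygen affinity, averaged 83.9 ± 22.3 in normoxia and 55.6 ± 25.8 after IH (log2 change -0.65, adjusted p = 7.15e-06). The β-globin Hbb-bs was not called with all libraries (-0.34, adjusted p = 0.117) and was -0.64 and called without the libraries standing apart, of which the 7 IH libraries had the high ratios to Hba-a1 given above. Of 6 platelet genes 3 fell. The glycoprotein chain Gp1bb averaged 7.66 ± 2.46 in normoxia and 4.46 ± 2.16 after IH (log2 change -0.80, adjusted p = 3.64e-05), Treml1 6.93 ± 1.76 in normoxia and 4.27 ± 1.7 after IH (log2 change -0.68, adjusted p = 3.84e-06) and the fibrinogen receptor chain Itga2b 18.5 ± 5.07 in normoxia and 12 ± 3.38 after IH (log2 change -0.61, adjusted p = 4.38e-06). On deposited TPM 1 of 6 platelet genes was called, and Itga2b (-0.54) lost its call without the 8 libraries. The part of the blood retained in each lung in these results was not tested.

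Striated muscle transcripts were higher after IH. Of 10 cardiac muscle genes 4 rose and 0 fell, and of 6 skeletal muscle genes 2 rose and 0 fell. The summed cardiac list ranged from 328 to 1707 scaled TPM (median 564) in normoxia and from 407 to 1313 (median 866) after IH, so the groups overlapped throughout. Of the 10 cardiac genes 3 were called higher in replicate 1 alone, 0 in replicate 2 (median 0.08) and 6 in replicate 3. Of the 6 skeletal genes 0, 0 and 1 were, and their median was -1.30 without the 8 libraries with the number of detected genes as a covariate. Tnnt2, cardiac troponin T, averaged 94.4 ± 39.1 in normoxia and 151 ± 39.1 after IH (log2 change 0.70, adjusted p = 9.89e-07), troponin I, Tnni3, 46.4 ± 23.9 in normoxia and 72.3 ± 15.7 after IH (log2 change 0.71, adjusted p = 8.98e-07) and the α-myosin heavy chain Myh6 66.4 ± 35.9 in normoxia and 101 ± 42.4 after IH (log2 change 0.59, adjusted p = 0.00167). The muscle creatine kinase Ckm averaged 15.9 ± 22 in normoxia and 35.6 ± 42.9 after IH (log2 change 0.96, adjusted p = 0.00283). Myl7, an atrial light chain, was 0.35 and not called. Acta1, skeletal actin, ranged from 0.0564 to 204 (median 0.481) in normoxia and from 0.119 to 331 (median 0.451) after IH and was not called (log2 change 0.80, adjusted p = 0.338). Mouse pulmonary veins carry a sleeve of cardiac muscle within the lung, and the source of these transcripts was not tested. Among genes of other neighbouring tissues, 0 of 6 adipose, 0 of 2 liver and 0 of 1 thymus genes were called, and 1 of 3 Schwann cell genes fell. No cartilage gene reached the tested level.

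Next, genes of oxygen sensing and HIF targets were examined, in lungs taken after the exposure to low oxygen had ended. Of 10 oxygen-sensing genes listed, 7 reached the level to be tested, and 0 of these were called. The paper reports Hif3a as up-regulated in the lung after IH. Hif3a was not among the genes tested from this list, so its change is not given here. The HIF α subunits averaged 22.5 ± 2.19 in normoxia and 19.2 ± 3.57 after IH for Hif1a (log2 change -0.24, adjusted p = 6.65e-04) and 1060 ± 185 in normoxia and 815 ± 237 after IH for Epas1 (log2 change -0.42, adjusted p = 5.39e-04). Their partner Arnt averaged 29 ± 2.95 in normoxia and 35.3 ± 3.98 after IH (log2 change 0.28, adjusted p = 4.38e-07). Of the prolyl hydroxylases that mark HIF for destruction, Egln1 was -0.16 (adjusted p = 0.0107) and Egln2 0.32 (adjusted p = 2.10e-07). The asparaginyl hydroxylase Hif1an was 0.07 (adjusted p = 0.272) and the ubiquitin ligase subunit Vhl -0.01 (adjusted p = 0.708). The changes of the 7 tested genes ran from -0.42 to 0.32 on the log2 scale.

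Of 26 HIF target genes 3 rose and 1 fell, against a background of 7.45% higher and 2.03% lower, and the list median was -0.17 (0.03 on deposited values). Vegfa (chr17:46016993-46032369 on GRCm38), the principal angiogenic growth factor, ranged from 376 to 620.1 (median 476) in normoxia and from 604 to 1340 (median 714) after IH, and its mean was 489 ± 59.4 in normoxia and 789 ± 202 after IH (log2 change 0.66, SE 0.08, adjusted p = 2.71e-10). For Vegfa 20 of 24 IH libraries exceeded every normoxia library. Car9, a carbonic anhydrase used widely as a marker of hypoxia, ranged from 2.66 to 5.75 (median 4.19) in normoxia and from 4.18 to 12 (median 6.46) after IH (log2 change 0.70, SE 0.09, adjusted p = 4.79e-09), also with 20 of 24 above. Pfkfb3, which drives glycolysis through its product fructose 2,6-bisphosphate, averaged 24 ± 9.25 in normoxia and 36.4 ± 12.1 after IH (log2 change 0.61, adjusted p = 1.07e-04). The single target to fall was the glucose transporter Slc2a1, which averaged 18.3 ± 2.5 in normoxia and 12.5 ± 4.25 after IH (log2 change -0.59, adjusted p = 2.93e-06). Among the other 40 libraries 0 of 26 were called, with Vegfa at 0.47 (adjusted p = 6.15e-11), Car9 at 0.50 (adjusted p = 3.68e-07), Pfkfb3 at 0.46 and Slc2a1 at -0.31. In the wider VEGF and angiopoietin list, 1 of 20 genes rose (Vegfa) and 2 fell (Kdr and Apln).

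Clock transcripts changed in 4 of 19 genes tested, and all 4 rose. They were the period genes Per2 and Per3, the PAR-domain factor Tef and Ciart, a repressor of the CLOCK and BMAL1 activator pair. That pair acts through the E-box CACGTG, and PAR-domain factors act through the D-box, written here as TTATGTAA. Promoter sequences are shown because these 4 genes moved together and both motifs are their textbook inputs. They come from RefSeq (GRCm38.p6), run from 250 bases before to 50 after each start on the gene's strand, and have every E-box and D-box in capitals. The table matched 3 of the 4 genes, which are Ciart at chr3:95882179-95882478 (minus strand), Per3 at chr4:151044616-151044915 (minus strand) and Tef at 2 starts, chr15:81802423-81802722 and chr15:81811164-81811463 (plus strand).
Ciart: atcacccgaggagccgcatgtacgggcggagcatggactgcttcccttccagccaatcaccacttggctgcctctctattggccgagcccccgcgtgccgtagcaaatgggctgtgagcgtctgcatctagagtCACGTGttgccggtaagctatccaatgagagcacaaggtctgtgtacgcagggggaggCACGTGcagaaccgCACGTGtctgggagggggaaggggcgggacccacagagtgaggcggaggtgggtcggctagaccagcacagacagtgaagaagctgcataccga
Per3: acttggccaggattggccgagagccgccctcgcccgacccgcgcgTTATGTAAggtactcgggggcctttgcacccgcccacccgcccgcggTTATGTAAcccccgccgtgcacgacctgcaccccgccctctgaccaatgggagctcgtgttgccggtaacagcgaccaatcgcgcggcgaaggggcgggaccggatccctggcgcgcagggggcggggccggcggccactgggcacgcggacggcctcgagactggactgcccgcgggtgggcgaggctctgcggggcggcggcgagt
Tef, first start: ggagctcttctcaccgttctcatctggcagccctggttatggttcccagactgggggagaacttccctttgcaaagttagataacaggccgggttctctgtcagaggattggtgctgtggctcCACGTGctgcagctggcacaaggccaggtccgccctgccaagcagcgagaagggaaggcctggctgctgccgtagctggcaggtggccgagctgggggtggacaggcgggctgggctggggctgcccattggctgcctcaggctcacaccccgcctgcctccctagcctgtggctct
Tef, second start: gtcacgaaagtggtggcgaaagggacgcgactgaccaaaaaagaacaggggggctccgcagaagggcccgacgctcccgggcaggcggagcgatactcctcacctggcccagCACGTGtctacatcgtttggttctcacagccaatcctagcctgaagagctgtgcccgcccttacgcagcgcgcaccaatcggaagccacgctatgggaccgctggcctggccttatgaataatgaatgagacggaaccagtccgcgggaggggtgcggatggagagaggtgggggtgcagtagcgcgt
The Ciart window holds 3 E-boxes, each Tef window 1 E-box, and the Per3 window 2 D-boxes and no E-box. An E-box was held by 7.15% and a D-box by 0.938% of all 32851 RefSeq promoters (either strand, the other strand reading TTACATAA). Among promoters of genes tested in the lung the shares were 9.82% and 0.532%. Of the 21 promoters of tested clock genes 6 held an E-box (28.6%) and 1 a D-box (4.76%). These are letter matches and no binding was measured.

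Ciart ranged from 2.88 to 22.9 (median 9.36) in normoxia and from 9.16 to 49.8 (median 18.4) after IH, and its mean was 9.9 ± 5.11 in normoxia and 23 ± 11.9 after IH (log2 change 1.17, SE 0.20, adjusted p = 1.19e-06). It was higher at all 8 time points, with 10 IH libraries above every normoxia library. Per3 ranged from 4.88 to 33.8 (median 10.9) in normoxia and from 5.91 to 78.6 (median 21.6) after IH, with means of 13.1 ± 8.02 in normoxia and 29.3 ± 21.2 after IH (log2 change 0.98, SE 0.27, adjusted p = 0.00147). Per2 averaged 12.2 ± 8.57 in normoxia and 21.9 ± 14 after IH (log2 change 0.84, adjusted p = 0.00876), and Tef 129 ± 64.5 in normoxia and 227 ± 133 after IH (log2 change 0.72, adjusted p = 0.0039). Because clock genes oscillate, their SD spans the cycle, and the range overlapped for all 4. At 7:30 Per3 was 15.9 ± 1.7 in normoxia and 52.1 ± 13.3 after IH, and at 22:30 it was 6.31 ± 1.41 and 8.16 ± 0.364 (mean ± SD, n = 3 each). Without the libraries standing apart 1 of 19 clock genes was called, Ciart at 0.82, while Per3 was 0.60, Per2 0.61 and Tef 0.39. With the number of detected genes as a covariate 0 were called, and Ciart was 0.09.

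The other clock genes were not called. In the positive limb, Arntl (BMAL1) was -0.07 (adjusted p = 0.863), Clock 0.28 (adjusted p = 0.00834) and Npas2 -0.14 (adjusted p = 0.738). In the negative limb, Per1 was 0.52 (adjusted p = 0.0944), Cry1 -0.16 and Cry2 0.38 (adjusted p = 0.464 and 1.95e-04). The nuclear receptors that set Arntl transcription were -0.35 for Nr1d1, 0.24 for Nr1d2 and 0.52 for Rora, of which Rora had the smallest adjusted p (2.05e-12) and missed the fold limit. The output factors were -0.27 for Dbp, 0.16 for Hlf and -0.17 for Nfil3, and the repressors -0.07 for Bhlhe40 and 0.34 for Bhlhe41. Outside the list, the BMAL1 paralogue Arntl2 was among the largest rises, from 2.55 ± 0.953 to 10.6 ± 6.68 (log2 change 1.74, SE 0.17, adjusted p = 2.41e-12), with 23 of 24 IH libraries above all normoxia libraries and 1.39 without the libraries standing apart.

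**Figure D3:**
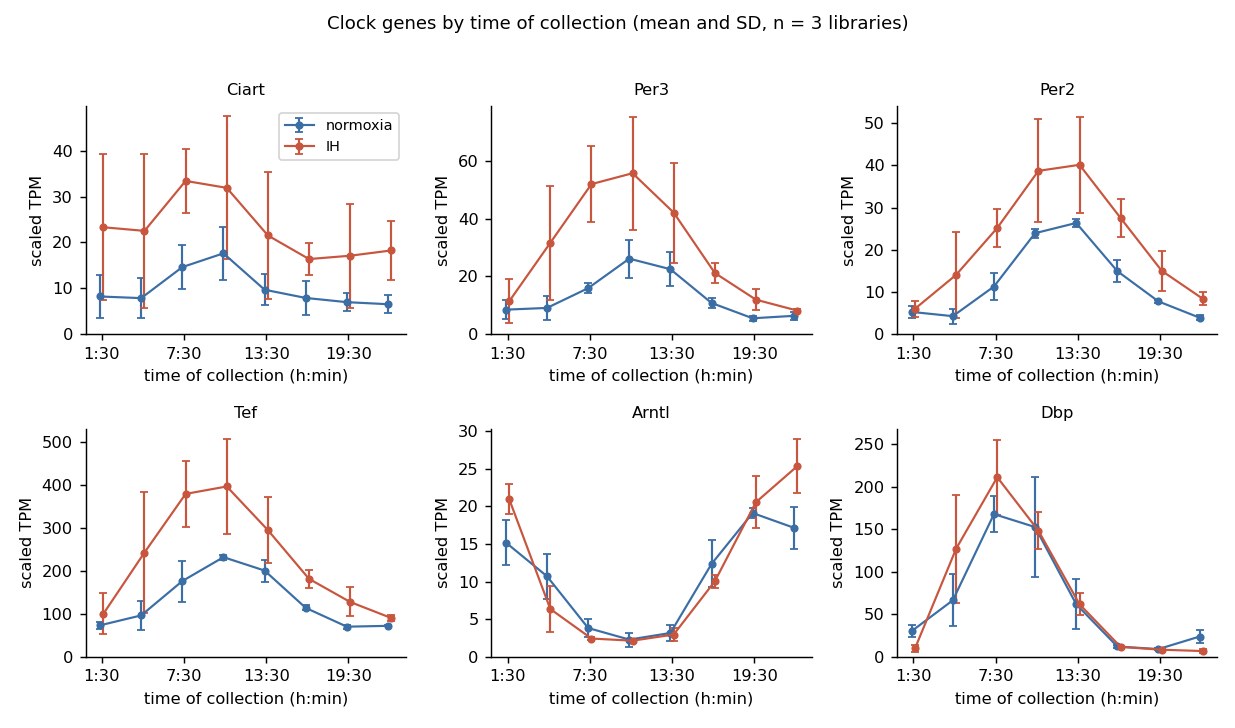
Scaled TPM (vertical axis) of 6 clock genes by time of collection (horizontal axis) in normoxia and IH lungs, each point the mean and each bar the SD of 3 libraries. Ciart is higher after IH at all 8 time points, and the highest Per3 mean is at 10:30 in both conditions.

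Whether the IH difference varied with clock time was tested directly. An interaction of treatment with time point passed an adjusted p of 0.05 for 0 of 11698 genes (limma F test), 42 genes (0.359%) had an unadjusted p of at most 0.05, and the lowest adjusted p was 0.31. Dbp had that lowest value, and Nr1d2 had 0.661. With 3 libraries per time point and condition, of which 7 IH libraries stood apart at 6 time points, this test had little precision, and a p above the threshold does not show that the differences were equal around the clock.

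Some genes of RNA splicing and nuclear regulation rose after IH. Of 20 SR splicing factors and CLK kinases 6 rose and 0 fell (median 0.44). Clk4, a kinase that phosphorylates SR proteins, ranged from 33 to 68 (median 44.8) in normoxia and from 51.8 to 167 (median 78.5) after IH (log2 change 0.90, SE 0.13, adjusted p = 2.46e-08). Clk2, a related kinase, averaged 26.9 ± 2.39 in normoxia and 44.7 ± 12.3 after IH (log2 change 0.68, adjusted p = 5.33e-11), and its 24 IH libraries all exceeded the 24 normoxia libraries. Luc7l2, a U1 snRNP-associated factor, averaged 85.8 ± 9.65 in normoxia and 163 ± 58.4 after IH (log2 change 0.86, adjusted p = 2.04e-10), and Srsf11 99.1 ± 27.2 in normoxia and 158 ± 47.6 after IH (log2 change 0.66, adjusted p = 4.12e-07). Leng8 (chr7:4137039-4148177 on GRCm38), whose annotation overlaps Leng9, ranged from 33.3 to 61 (median 39.5) in normoxia and from 65.4 to 268 (median 123) after IH, and its mean was 42.7 ± 8.54 in normoxia and 141 ± 53.8 after IH (log2 change 1.64, SE 0.12, adjusted p = 5.33e-16). The conditions did not overlap for Leng8, as for 132 of the 871 rises and 10 of the 238 falls (2.27% of all genes tested did not overlap). The noncoding RNA Snhg11 averaged 9.97 ± 4.55 in normoxia and 27.3 ± 13.3 after IH (log2 change 1.39, adjusted p = 1.37e-09).

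Among 209 Zfp zinc finger genes 25 rose and 0 fell, against 7.45% of all genes higher. Zfp169 averaged 3.03 ± 0.627 in normoxia and 9.09 ± 3.59 after IH (log2 change 1.38, adjusted p = 6.16e-14) without overlap between conditions, and Zfp579 averaged 23.1 ± 4.12 in normoxia and 46.3 ± 15.9 after IH (log2 change 0.94, adjusted p = 2.26e-11). Of 24 chromatin regulators 3 rose, all of them histone-methyltransferase family genes, Kmt2a at 10.1 ± 1.76 in normoxia and 15.6 ± 2.32 after IH (log2 change 0.61, adjusted p = 3.61e-11), Kmt2d at 21.6 ± 3.7 in normoxia and 35 ± 9.88 after IH (log2 change 0.66, adjusted p = 1.08e-08) and Setd5 at 26.3 ± 3.32 in normoxia and 41.5 ± 6.16 after IH (log2 change 0.64, adjusted p = 6.25e-14). In the other 40 libraries 2 of 20 splicing genes, 7 of 209 Zfp genes and 0 of 24 chromatin regulators were called higher, against 4.18% of all genes. Clk2 (0.50), Srsf11 (0.49), Kmt2a (0.52), Kmt2d (0.46) and Setd5 (0.55) lost their calls there. In replicates 1, 2 and 3 alone 12, 6 and 0 of 20 splicing genes were called higher (median -0.01 in replicate 3), 45, 50 and 15 of 209 Zfp genes, and 1, 3 and 5 of 24 chromatin regulators. With the number of detected genes as a covariate Clk4 was -0.02 and Srsf11 -0.10, whereas Leng8 was 0.89.

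The structure of the changed genes also differed. Of protein-coding genes that rose, 73.3% had a retained-intron transcript in the annotation, against 61.0% of all tested and 38.3% of those that fell. For transcripts subject to nonsense-mediated decay the shares were 42.1%, 29.5% and 14%. Rising genes had a median of 13 exons and falling genes 6, against 9 for all. Their longest annotated transcripts had medians of 4075, 2084 and 3338 bases. Rising genes were low in normoxia (median 10.2 scaled TPM) and falling genes high (79.2, against 22.2 for all). Predicted and RIKEN-named genes and pseudogenes were 16.3% of rises, 2.94% of falls and 4.68% of all tested. The filter took the mean over both conditions, so genes averaging below 5 TPM in normoxia were tested only where IH was higher. Part of the low level of rising genes is thus set by the filter, and its part in the other shares was not tested. In replicate 3 alone, 63.6% of rising genes had a retained-intron transcript, with 15 exons at the median, against 52.6% and 5 exons for falling genes. These figures describe annotation, and intron retention itself was not measured.

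**Figure D4:**
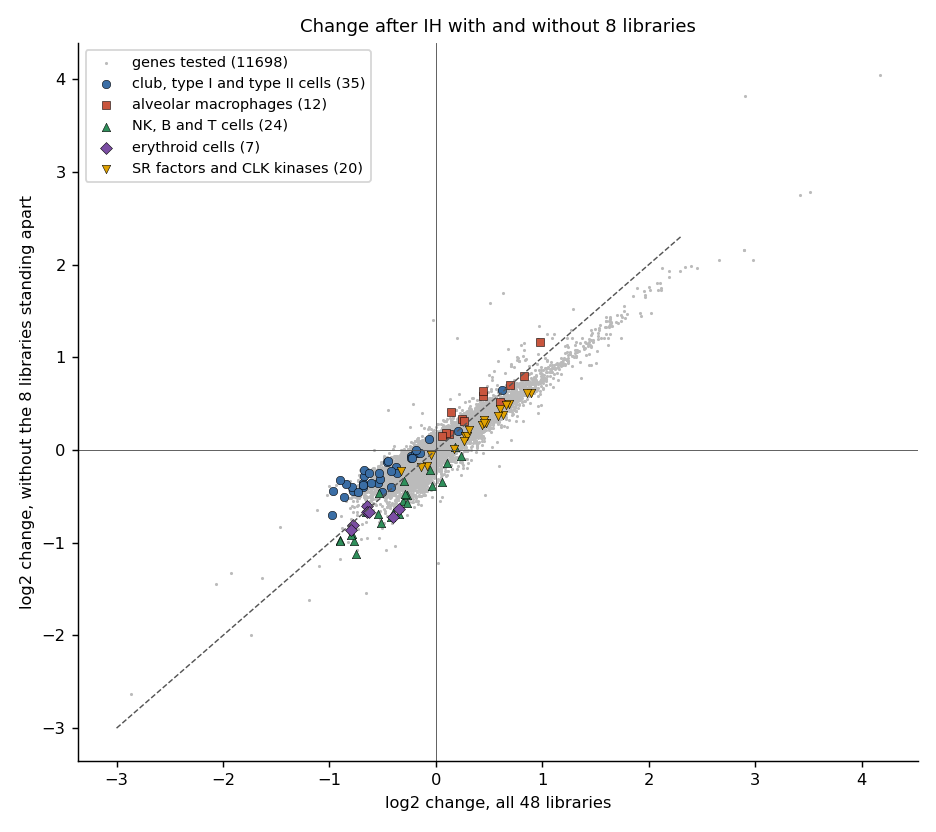
Log2 change (IH minus normoxia) of each tested gene without the 8 libraries standing apart (vertical axis) against all 48 lung libraries (horizontal axis), with 5 groups of listed genes in colour and a dashed line of equality. Most epithelial genes lie nearer to 0 on the vertical axis (Scgb1a1 at -0.90 and -0.32), and most NK, B and T cell genes farther from it (Gzma at -0.75 and -1.12).

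Calls among metabolic and proteostatic genes differed by list, against 7.45% of all genes higher and 2.03% lower. Of 21 xenobiotic metabolism genes 6 fell, among them Cyp2f2 and Aldh1a1, which are also club cell genes, and 0 were called without the libraries standing apart. The dioxin-inducible Cyp1a1 ranged from 3.41 to 230.1 (median 6.26) in normoxia and from 1.88 to 8.26 (median 4.42) after IH (log2 change -0.79, SE 0.30, adjusted p = 0.0188), and was not called without the libraries standing apart (-0.60). Of 21 antioxidant and NRF2 target genes 3 fell and 0 rose. The quinone reductase Nqo1 averaged 10.2 ± 3.74 in normoxia and 5.68 ± 1.52 after IH (log2 change -0.77, adjusted p = 2.54e-08), and was -0.62 and still called without those libraries. Catalase, Cat, averaged 219 ± 22.8 in normoxia and 145 ± 55.1 after IH (log2 change -0.70, adjusted p = 2.90e-06) and the peroxiredoxin Prdx6, also used in surfactant turnover, 1564 ± 256 in normoxia and 1113 ± 421 after IH (log2 change -0.59, adjusted p = 1.27e-04), and neither was called without them (Cat -0.36, Prdx6 -0.29). Of 16 glycolysis genes 1 fell (median -0.47), and 0 were called without the libraries standing apart. None of 36 nuclear complex I genes was called, although 30 had a lower value at an adjusted p of at most 0.05 (36% of all genes did). The same held for the proteasome, with 0 of 37 called and 36 lower at that p. Among 13 mitochondrially encoded genes mt-Co2 fell, from 6466 ± 3305 to 4297 ± 2221 (log2 change -0.64, adjusted p = 0.00252).

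The ribosomal protein genes differed between replicate numbers. Of 83 genes 1 fell with all libraries (Rps4l, 56.5 ± 6.33 in normoxia and 37 ± 9.15 after IH, log2 change -0.64, adjusted p = 6.39e-09), and the median was -0.13 (0.07 on deposited values). Without the libraries standing apart the median was -0.38 with 0 called (Rps4l -0.44). In replicate 3 alone it was -0.73 with 63 called lower, against a background of 5.86%. The replicate 1 and replicate 2 medians were 0.43 and -0.05.

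The largest rise outside predicted genes and pseudogenes was Reg2 (chr6:78395623-78408106 on GRCm38), a secreted lectin best known from the regenerating pancreas. It ranged from 1.4 to 13.4 (median 2.92) in normoxia and from 6.9 to 59.4 (median 13.4) after IH, and its mean was 3.52 ± 2.43 in normoxia and 17.7 ± 12.6 after IH (log2 change 2.10, SE 0.20, adjusted p = 2.71e-12). Ctrc, chymotrypsin C, ranged from 1.37 to 7.21 (median 3.27) in normoxia and from 7.38 to 51.7 (median 12.6) after IH (log2 change 1.97, SE 0.16, adjusted p = 4.39e-14), and all 24 IH libraries exceeded all normoxia libraries. The Ctrc annotation overlaps Casp9 and Cela2a. The pancreatic enzyme genes Prss2, Cpa1, Pnlip, Amy2a5 and Ctrb1, chosen after these values were seen, did not exceed 0.508 TPM in any lung library. Col26a1, a collagen, averaged 1.6 ± 1.11 in normoxia and 8.45 ± 6.67 after IH (log2 change 1.91, adjusted p = 3.69e-10), and the sperm fusion factor Spaca6 15.6 ± 4.78 in normoxia and 57 ± 27.3 after IH (log2 change 1.75, adjusted p = 7.60e-14). Tgfbr3l averaged 2.66 ± 1.12 in normoxia and 9.87 ± 4.82 after IH (log2 change 1.65, adjusted p = 2.02e-12), Fam227a 3.05 ± 0.939 in normoxia and 10.5 ± 3.84 after IH (log2 change 1.60, adjusted p = 2.94e-15) and Tmem72 3.49 ± 0.599 in normoxia and 12.5 ± 6.16 after IH (log2 change 1.59, adjusted p = 7.01e-15). Prr33, whose annotation overlaps Lsp1 and Tnnt3, averaged 2.07 ± 0.569 in normoxia and 7.82 ± 4.01 after IH (log2 change 1.58, adjusted p = 9.56e-13). The matrix protein gene Sned1 had the smallest p of the named rises, at 9.08 ± 1.77 in normoxia and 27.8 ± 7.5 after IH (log2 change 1.54, SE 0.09, adjusted p = 9.53e-19). Coro6, a coronin of muscle and brain, averaged 3.43 ± 0.971 in normoxia and 11.1 ± 3.77 after IH (log2 change 1.53, adjusted p = 1.02e-15). These 10 genes, from Reg2 to Coro6, were higher at all 8 time points and were called without the libraries standing apart. Those averaging below 5 TPM in normoxia, among them Reg2 and Ctrc, passed the filter only through their IH level. In replicate 3 alone the changes of the 10 genes ran from 0.78 (Tgfbr3l) to 1.37 (Sned1), with Reg2 at 1.17 and Col26a1 at 0.87. With the number of detected genes as a covariate they ran from 0.20 (Col26a1, adjusted p = 0.284) to 1.09 (Sned1), with Reg2 at 0.64. Chka, the kinase that starts phosphatidylcholine synthesis, also rose, from 53.7 ± 9.75 to 98.4 ± 28.5 (log2 change 0.84, adjusted p = 7.61e-11).

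The largest fall was Pcdhgc4, a clustered protocadherin of the cell surface, which ranged from 1.25 to 93.8 (median 35) in normoxia and from 1.17 to 17.7 (median 2.34) after IH (log2 change -2.86, SE 0.35, adjusted p = 1.29e-09). Normoxia itself was wide for Pcdhgc4, and 1 IH library lay below all normoxia libraries. The clustered protocadherins share their last exons, so reads of neighbours can be assigned to 1 of them, and 1 of 4 tested members was called. The lymphoid chemokine genes Ccl21b (-2.07, adjusted p = 7.42e-04) and Ccl21c (-1.93, adjusted p = 0.00152) are near-identical copies and their values are uncertain (Ccl21c lost its call without the 8 libraries, at -1.32), as is that of the ribosomal retrogene Rps27rt (-1.19, adjusted p = 0.00564). Rbp7, a retinol-binding protein of microvascular endothelium, ranged from 6.02 to 17.7 (median 9.8) in normoxia and from 1.52 to 10.1 (median 4.32) after IH (log2 change -1.10, SE 0.15, adjusted p = 2.61e-08), with 17 of 24 IH libraries below all normoxia libraries, and was -1.26 without the libraries standing apart and -1.98 in replicate 3. The antibody segment Igkv5-39 ranged from 1.69 to 157 (median 5.99) in normoxia and from 0.533 to 22.7 (median 6.26) after IH (log2 change -0.90, SE 0.41, adjusted p = 0.0471), so its 2 medians lay in the opposite order to its fitted change. Among 8 proliferation genes 1 fell, the replication helicase subunit Mcm3, from 16.6 ± 4.36 to 9.54 ± 1.33 (log2 change -0.74, adjusted p = 2.34e-11), and it was -0.67 and called without those libraries. Among 20 immediate early genes 1 rose and 3 fell, including Jun, from 175 ± 20.8 to 119.9 ± 35.2 (log2 change -0.60, adjusted p = 7.01e-07; -0.37 and not called without those libraries).

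Finally, the lung was set beside the heart of the same series, which has its own normoxia libraries and the same 24 per condition. Of the 7783 genes tested in both, the IH change differed between the organs for 4658 (59.8%, limma interaction, adjusted p at most 0.05), being more positive in lung for 1876 (24.1%) and less for 2782 (35.7%). Splicing genes lay on the lung side, with 16 of 20 SR and CLK genes more positive in lung and list medians of 0.44 in lung and -0.45 in heart. Vegfa also moved apart, at 0.66 in lung and -0.78 in heart. Endothelial genes lay the other way, with 12 of 15 pan-endothelial genes less positive in lung (medians -0.34 and 0.17), as did 5 of 6 mesothelial genes (medians -0.53 and 0.50) and 14 of 15 complement and coagulation genes (medians -0.41 and 0.37). Among 11 clock genes tested in both 1 differed, Tef (0.72 in lung and -0.17 in heart), with list medians of 0.16 and 0.10. Per2, Per3 and Ciart, the other clock genes called in lung, were not among the 11, so their changes could not be compared. With the 8 lung libraries left out, 3782 genes differed. The lung medians were then 0.28 for the splicing list and -0.29 for the pan-endothelial list, and -0.01 and -0.11 in replicate 3 alone. Heart libraries were not examined for ones standing apart, and the part of library differences in this contrast was not tested.

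**Figure D5:**
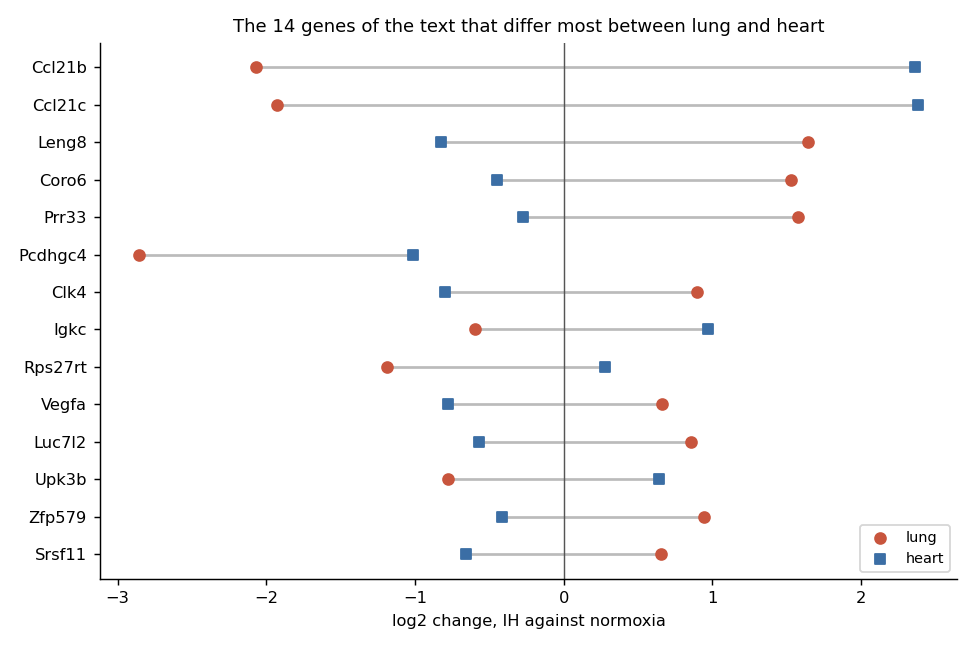
Log2 change after IH (horizontal axis) in lung (circles) and heart (squares) for the 14 genes of the text that differ most between the organs, with a line joining the 2 values of a gene and a vertical line at 0. Leng8, Clk4, Luc7l2 and Vegfa lie above 0 in lung and below 0 in heart, and Upk3b the reverse.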

How the data were processed

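RNA from whole lungs of 48 mice (24 per condition) was sequenced with poly(A) selection and a strand-specific kit. The authors quantified transcripts with kallisto against ENSEMBL release 102 of the mouse (mm10) and deposited gene-level TPM, which are normalised to transcript length and to a fixed sum per library. The lung libraries summed to between 991993 and 996655 TPM over 35904 genes. The authors' estimated counts were not used here, so read depth is unknown here, no counting interval is given, and the counting error of low genes is unknown too. Whether strand was used in quantification is not given in the sources used here.

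TPM were scaled by the median of ratios over genes that averaged 5 TPM or more and were above 0 in every library. All genes averaging 5 TPM or more were fitted with limma 3.58.1 (trended empirical Bayes, R 4.3.3) on log2(scaled TPM + 0.5) with treatment as the single term, and p-values were adjusted by Benjamini-Hochberg over all 11698 genes. A gene was called at an adjusted p of at most 0.05 and a 1.5-fold change. A treatment by time point model and a treatment by organ model (lung and heart) gave the interaction tests. Library measures were compared by two-sided permutation tests with 100000 resamples (Python 3.11.15, scipy 1.17.1). The code was tested on simulated data. Figures were drawn with matplotlib 3.10.9.

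Named genes were the 12 largest rises and 12 largest falls among called genes other than predicted genes and pseudogenes, the first 3 and up to 4 called genes of each of 74 gene lists, and every oxygen-sensing and clock gene, of which the text names part (values of some listed genes are not reported here). The lists and the genes named were chosen with earlier results of these data known. Gene positions and transcript classes came from GENCODE mouse release 21 on GRCm38, which matched 98.94% of tested symbols. Promoters came from RefSeq (GRCm38.p6). No library was identical to another, and 0 columns of lung or heart values were set aside. Replicate numbers did not pair the libraries: deviations from group means correlated above 0.1 in 6 of 24 normoxia and IH pairs (median -0.183), and in 12 of 48 lung and heart pairs (median -0.026).

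The alternatives were other pseudocounts, filters and scalings, further terms for time, replicate number or detected genes, and leaving out replicates or time points. Scaling over all genes above 0, leaving out the 8 libraries standing apart (alone, on deposited TPM or with detected genes as a term) and the replicate block for lung and heart were added after seeing the data.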

Additional observations from a re-analysis of the deposited data

Results flagged for a closer look

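The change after IH differed between lung and heart in 4658 of 7783 genes (limma interaction, adjusted p at most 0.05). Of 76 genes that the text names and both organs could test, 54 differed, and the 14 with the largest differences follow as the log2 change in lung minus that in heart. Genes more positive in lung were Leng8 (2.47, from 1.64 in lung and -0.83 in heart), Coro6 (1.98), Prr33 (1.85), Clk4 (1.70, from 0.90 and -0.80), Vegfa (1.44, from 0.66 and -0.78), Luc7l2 (1.43, from 0.86 and -0.57), Zfp579 (1.36) and Srsf11 (1.31, from 0.66 and -0.66). Genes less positive in lung were Ccl21b (-4.43, from -2.07 and 2.36), Ccl21c (-4.32), Pcdhgc4 (-1.84, from -2.86 and -1.02), Igkc (-1.57, from -0.60 and 0.97), Rps27rt (-1.47) and Upk3b (-1.42, from -0.78 and 0.64). Ccl21b and Ccl21c are near-identical copies. The lung and heart libraries of 1 number may come from 1 mouse, which the labels do not state.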

How the results depend on the processing

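The counts of called genes moved with scaling, filter and libraries. Genes called higher (871) and lower (238) were 1667 and 43 on deposited TPM, 591 and 591 with scaling over all genes above 0, and 440 and 718 with the number of detected genes as a term. The number of detected genes itself differed between conditions, so that term takes up part of the treatment difference. Rises were 1806 at a filter of 1 TPM, 297 at 20 TPM and 3013 with no filter, where falls were 290, 167 and 293. Leaving out 1 replicate number at a time gave 705 to 1213 rises and 120 to 675 falls, with the fewest of both without replicate 2 and the most without replicate 3. Replicate numbers 1, 2 and 3 alone gave 1354, 1128 and 664 rises and 791, 700 and 685 falls. Leaving out each time point gave 777 to 901 rises and 187 to 278 falls. Without the 8 libraries standing apart rises were 489 and falls 90, on deposited TPM 1109 and 33, and with detected genes as a term 620 and 836. The cause was not tested beyond these settings.

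The replicate block gave 873 rises and 239 falls, and for lung against heart 4638 differing genes, and changed none of the calls of named genes. The interaction with time point gave 0 genes, and 0 to 2 when 1 replicate number was left out (2 without replicate 1). The lung and heart count was 3651 to 5200 when 1 replicate number was left out.

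Of 134 genes considered for the text 100 were called, and 22 changed sign somewhere. With the number of detected genes as a term the log2 changes were Scgb1a1 0.18, Cyp2f2 0.083, Sftpc 0.030, Sftpb 0.51, Chil1 0.063, Ager 0.22, Pigr 0.13, Gprc5a 0.30, Plvap 0.082, Cdh5 0.29, Kdr 0.062, S100a8 -1.17, Igha 0.21, Cd74 0.11, Clk4 -0.017, Srsf11 -0.098, Cat 0.043, Prdx6 0.21 and Jun 0.11. With that term and without the libraries standing apart they were Scgb1a1 0.031, Cyp2f2 0.12, Sftpb 0.57, Ager 0.022, Pigr 0.19, Gprc5a 0.31, Cdh5 0.26, Kdr 0.15, S100a8 -1.43, Csf3r -0.064, Bhlhe40 0.67, Srsf11 -0.026, Cat 0.019 and Prdx6 0.028. In replicate number 3 alone Sftpb was 0.18, Cdh5 0.036 and S100a8 -1.17, and in replicate number 1 alone mt-Co2 was 0.37. Of the 100 called genes 36 lost their call on deposited TPM and 44 without the libraries standing apart, in each case with the sign kept. Of 852 medians of gene lists under the alternatives 310 moved by more than the spread between libraries. With TPM alone, depth cannot be weighed against the low levels of some genes named, among them Prr33, Tgfbr3l and Arntl2.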

Other observations

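Lists of inflammatory and stress genes held calls as follows, against 7.45% of all genes higher and 2.03% lower. Of 20 interferon-stimulated genes 1 rose (Stat2) and 1 fell (Gbp2), and of 14 NF-kappaB targets 2 rose (Nfkbiz and Tnfaip2). Among 16 chemokines and cytokines 1 fell, Ccl5. Among 15 glucocorticoid targets and 13 genes of the ATF4 stress response 0 were called. Of 18 endoplasmic reticulum chaperones 3 fell (Pdia3, Pdia4 and P4hb), and of 15 heat shock chaperones 1 fell (Hsp90aa1). Without the libraries standing apart 0 of these chaperones, 0 interferon-stimulated genes and 1 NF-kappaB target were called. Complement and coagulation genes were lower at an adjusted p of at most 0.05 in 16 of 16 (36% of all genes were), of which 2, C3 and Vwf, passed the fold limit. Their median was -0.39 with all libraries, and -0.57, -0.62 and 0.02 in replicates 1, 2 and 3 alone. With the number of detected genes as a covariate it was 0.13. Without the libraries standing apart Vwf was still called and C3 was not.

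Vascular tone and growth factor signalling showed no calls, with 0 of 18 endothelin, nitric oxide and prostacyclin genes and 0 of 18 BMP and TGF-beta genes. In lipid metabolism 0 of 17 cholesterol, 0 of 16 fatty acid oxidation and 0 of 23 lysosome and autophagy genes were called, and of 17 surfactant lipid genes 1 rose (Chka) and 1 fell (Fasn). Of 20 actin cytoskeleton genes 3 fell (Actb, Actg1 and Cfl1). Without the libraries standing apart 0 of these 3 were called, nor was Fasn. None of 42 nuclear genes of complexes III and IV and ATP synthase was called with all libraries. In replicate number 3 alone 17 of them were called lower, as were 16 of 36 complex I genes.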
